A study of Homo sapiens with 12 samples.

Results

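This account concerns 9 genes of innate immune sensing: the nucleic acid sensors *CGAS*, *RIGI* and *IFIH1*, the adaptors *STING1* and *MAVS*, and the interferon regulatory factors *IRF1*, *IRF3*, *IRF7* and *IRF9*. They were taken by gene symbol, or by the older symbols MB21D1, TMEM173 and DDX58, from the 2 deposited count tables, which together list 79317 genes. All 9 were found, 8 had enough counts to be tested in KYSE30 cells and 9 in the libraries labelled U138MG. Poly-A RNA-seq was run on 12 human cell line libraries, 3 in each of 4 groups. KYSE30 (esophageal squamous cell carcinoma) and U138MG (labelled as glioblastoma) cells received either 100 nM of the phosphatidylserine synthase 1 inhibitor DS55980254 (PTDSS1i) or an equal volume of DMSO, and were collected after 48 h. Each line came as its own count table, so line and any batch that goes with the table cannot be told apart. There was only 1 line per labelled tumor type, and several markers given below differ from the glioblastoma label. The comparison of interest was PTDSS1i against DMSO within a line.

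cGAS binds double-stranded DNA in the cytosol and makes the messenger cGAMP, which activates STING on the endoplasmic reticulum. RIG-I (*RIGI*) and MDA5 (*IFIH1*) bind viral or unedited double-stranded RNA and signal through MAVS on mitochondria. Both arms reach the kinase TBK1, which phosphorylates IRF3 and IRF7 to switch on interferon genes, while IRF9 joins STAT2 in the complex that reads interferon signals, and IRF1 is induced by interferon gamma and by NF-kB.

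Total counts ran from 18800932 to 26514658 per library, so that 3 counts, the limit a count of 0 allows, equal at most 0.160 CPM (counts scaled to a common library size). The libraries labelled U138MG differed from that label in several defining markers. In DMSO they held *KRT5*, a basal keratin, at a mean of 1470 CPM and *TP63*, the squamous lineage factor, at 276 CPM, while *VIM*, the mesenchymal filament gene that glioblastoma lines express, was at 0.206 CPM and the glial genes *OLIG2* and *S100B* had 0 counts. Other markers on the same lists were present there, with *SPARC* at 713 CPM, *FN1* at 75.8 CPM, *COL1A1* at 54.5 CPM, *SOX2* at 38.9 CPM and *GFAP* at 2.36 CPM. On the mesenchymal list *TWIST1* had 0 counts there and *COL1A2* was at 0.0767 CPM. The list of 7 mesenchymal genes summed to 841 to 872 CPM in DMSO there and to 110 to 160 CPM in KYSE30, and the list of glial and neural genes to 43.0 to 45.8 CPM and 97.6 to 103 CPM. *SOX2* made up most of the glial and neural sum in both, with 99.4 CPM in KYSE30. A list of general epithelial genes summed to 3344 to 3430 CPM in DMSO in the libraries labelled U138MG and to 10540 to 11353 CPM in KYSE30. The libraries are therefore called the libraries labelled U138MG throughout. A fixed list of squamous epithelial markers summed to 6727 to 7561 CPM in DMSO and 2280 to 2431 CPM in PTDSS1i in those libraries, and to 371 to 408 CPM and 687 to 721 CPM in KYSE30. *KRT15*, at 4861 CPM, made up most of the DMSO sum in the libraries labelled U138MG. *SFN* was at 282 CPM, *DSC3* at 256 CPM and *DSG3* at 50.3 CPM in DMSO there. *KRT14*, at 0.198 CPM, and *KRT6A*, at 0.488 CPM, were nearly absent. In KYSE30 *SFN* was the largest part, at 200 CPM in DMSO. *SFN*, *KRT15*, *KRT6A* and *DSG3* rose in KYSE30, *TP63* and *DSC3* fell, and *KRT14* was not called. *KRT5*, at 0.0608 CPM in DMSO and at most 3 counts there, was too scarce to be tested. *SFN* also rose in the libraries labelled U138MG, by 0.54 more than in KYSE30 on the log2 scale. The falling sum in those libraries thus hides a marker that rose. The part of this list in the member changes below was not tested. In cultures, a change in the share of some cells and a change in RNA per cell cannot be told apart.

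In KYSE30, 7 of the 8 tested members rose with PTDSS1i and 0 fell, against 30.1% of all tested genes that rose and 32% that fell (62% in either direction). In the libraries labelled U138MG, 4 of 9 rose and 3 fell, against 33.9% and 33.6% (67.5% in either direction). Among the members, *IFIH1* rose most in KYSE30 and *CGAS* in the libraries labelled U138MG, whereas *STING1*, *MAVS* and *IRF1* rose in the first and fell in the second. The 3 libraries of each treatment did not overlap for 7 of 8 members in KYSE30 and 7 of 9 in the libraries labelled U138MG, against 66.3% and 71.4% of all tested genes. These calls are from edgeR's quasi-likelihood test at an adjusted p under 0.05, and values below are CPM scaled by TMM normalization. Scaling to library size only moved the median log2 change of all tested genes from -0.03 to -0.13 in KYSE30 and from -0.03 to -0.17 in the libraries labelled U138MG. Under it the split was 6 members higher and 1 lower in KYSE30, and 3 higher and 4 lower in the libraries labelled U138MG. Over all tested genes, rises made up 48.5% of the calls in KYSE30 and 50.2% in the libraries labelled U138MG, and 37.8% and 37.1% with library size only.

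**Figure D1:**
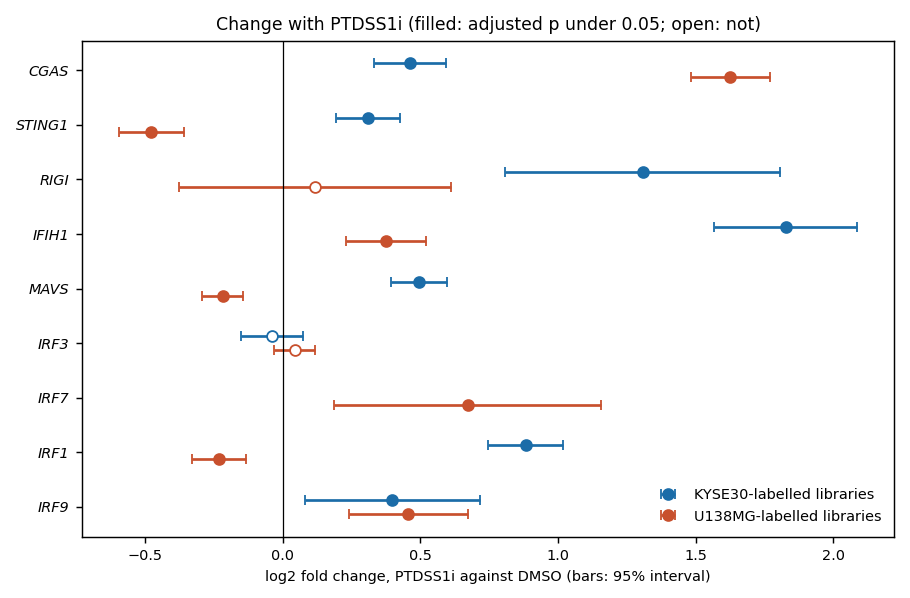
Log2 fold change (PTDSS1i minus DMSO, edgeR, with 95% confidence intervals) of each member in KYSE30 and in the libraries labelled U138MG. *IFIH1* had the highest value in KYSE30, 1.83, and *CGAS* in the libraries labelled U138MG, 1.63, while *STING1*, *MAVS* and *IRF1* lay above 0 in KYSE30 and below 0 in the other line.

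*CGAS* (ENSG00000164430, minus strand of chr6:73413515-73452276 in GRCh38) encodes the cytosolic DNA sensor. In KYSE30 it stood at 39.6, 36.8 and 35.9 CPM in DMSO and at 52.3, 48.7 and 53.3 CPM in PTDSS1i. Every PTDSS1i library was above every DMSO library, and the log2 fold change was 0.46 ± 0.063 (SE, edgeR adjusted p = 1.45e-06). The libraries labelled U138MG held it at 15.8, 14.7 and 15.6 CPM in DMSO and at 43.5, 47.7 and 50.9 CPM in PTDSS1i. The treated libraries again lay above all controls, with means of 15.4 ± 0.603 and 47.4 ± 3.70 CPM (SD, n = 3), a 3.09-fold rise (log2 fold change 1.63 ± 0.070, edgeR adjusted p = 4.68e-18). The DMSO level was lower in the libraries labelled U138MG and the treated levels of the lines came close to each other, although the 2 tables were normalized separately. The change differed between the lines by 1.12 ± 0.096 on the log2 scale (interaction term over 12 libraries, edgeR adjusted p = 1.65e-11).

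*STING1* (ENSG00000184584, minus strand of chr5:139475534-139482935), the adaptor that cGAMP binds, moved in opposite directions. In KYSE30 it was at 123, 142 and 133 CPM in DMSO and 157, 167 and 168 CPM in PTDSS1i. It rose by a log2 fold change of 0.31 ± 0.056 (edgeR adjusted p = 5.88e-05), with no overlap between treatments. Libraries labelled U138MG held 41.6, 42.2 and 40.5 CPM in DMSO and 30.8, 28.9 and 29.6 CPM in PTDSS1i. All 3 treated libraries were below all controls there (log2 fold change -0.48 ± 0.058, edgeR adjusted p = 2.69e-08). Hence in the libraries labelled U138MG the DNA sensor rose while its adaptor fell, and the *STING1* change differed between the lines by -0.83 ± 0.075 (libraries labelled U138MG minus KYSE30, edgeR adjusted p = 6.90e-11).

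*RIGI* (ENSG00000107201, minus strand of chr9:32455705-32526324), the sensor of 5′-triphosphate RNA, was scarce in KYSE30, with 13, 18 and 26 counts in DMSO and 48, 39 and 58 counts in PTDSS1i. These equal 0.635, 0.908 and 1.11 CPM against 2.24, 1.99 and 2.39 CPM. The ranges did not overlap and the rise was 2.48-fold from this low level (log2 fold change 1.31 ± 0.24, edgeR adjusted p = 6.84e-05). It was higher in the untreated libraries labelled U138MG, at 14.1, 16.2 and 12.0 CPM in DMSO, and at 18.3, 16.3 and 11.6 CPM in PTDSS1i. There the treatments overlapped, since PTDSS1i replicate 3 was the lowest of the 6 libraries and PTDSS1i replicate 1 the highest. The log2 fold change was 0.12 ± 0.20 (95% interval -0.38 to 0.61, edgeR adjusted p = 0.635), and 0.30 (adjusted p = 0.0223) without PTDSS1i replicate 3. The change differed between the lines by -1.23 ± 0.32 (edgeR adjusted p = 0.00292).

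*IFIH1* (ENSG00000115267, minus strand of chr2:162267079-162318703) encodes MDA5, which binds long double-stranded RNA. In KYSE30 it was at 21.1, 29.8 and 29.9 CPM in DMSO and at 92.5, 98.7 and 95.6 CPM in PTDSS1i. The treated libraries stood far above the controls, of which DMSO replicate 1 was the lowest, and the rise was 3.55-fold (log2 fold change 1.83 ± 0.11, edgeR adjusted p = 6.28e-07). The libraries labelled U138MG had levels of 22.2, 20.7 and 23.8 CPM in DMSO and of 30.2, 28.0 and 28.2 CPM in PTDSS1i. The treated libraries were again all higher, by a log2 fold change of 0.37 ± 0.071 (edgeR adjusted p = 3.81e-05). The change was smaller in the libraries labelled U138MG by 1.49 ± 0.14 on the log2 scale (-1.49, edgeR adjusted p = 8.67e-08). With *RIGI* and *IFIH1*, 2 of 8 members passed a log2 fold change of 1 upward in KYSE30, against 6.4% of tested genes, and with *CGAS*, 1 of 9 did so in the libraries labelled U138MG, against 8.19%. Downward, 0 members passed that fold in either line, against 7.04% and 11.6% of tested genes.

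*MAVS* (ENSG00000088888, plus strand of chr20:3846799-3876123), the mitochondrial adaptor of both RNA sensors, was at 237, 238 and 231 CPM in DMSO and at 339, 324 and 334 CPM in PTDSS1i in KYSE30. For the libraries labelled U138MG the values were 165, 175 and 166 CPM in DMSO and 143, 145 and 147 CPM in PTDSS1i. The treatments were separate in both lines, but on opposite sides. The log2 fold change was 0.50 ± 0.049 in KYSE30 (edgeR adjusted p = 1.39e-08) and -0.22 ± 0.036 in the libraries labelled U138MG (edgeR adjusted p = 5.45e-06). The change therefore differed between the lines by -0.75 ± 0.059 (edgeR adjusted p = 2.89e-12). Of the adaptors, *STING1* and *MAVS* thus rose together in KYSE30 and fell together in the libraries labelled U138MG.

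**Figure D2:**
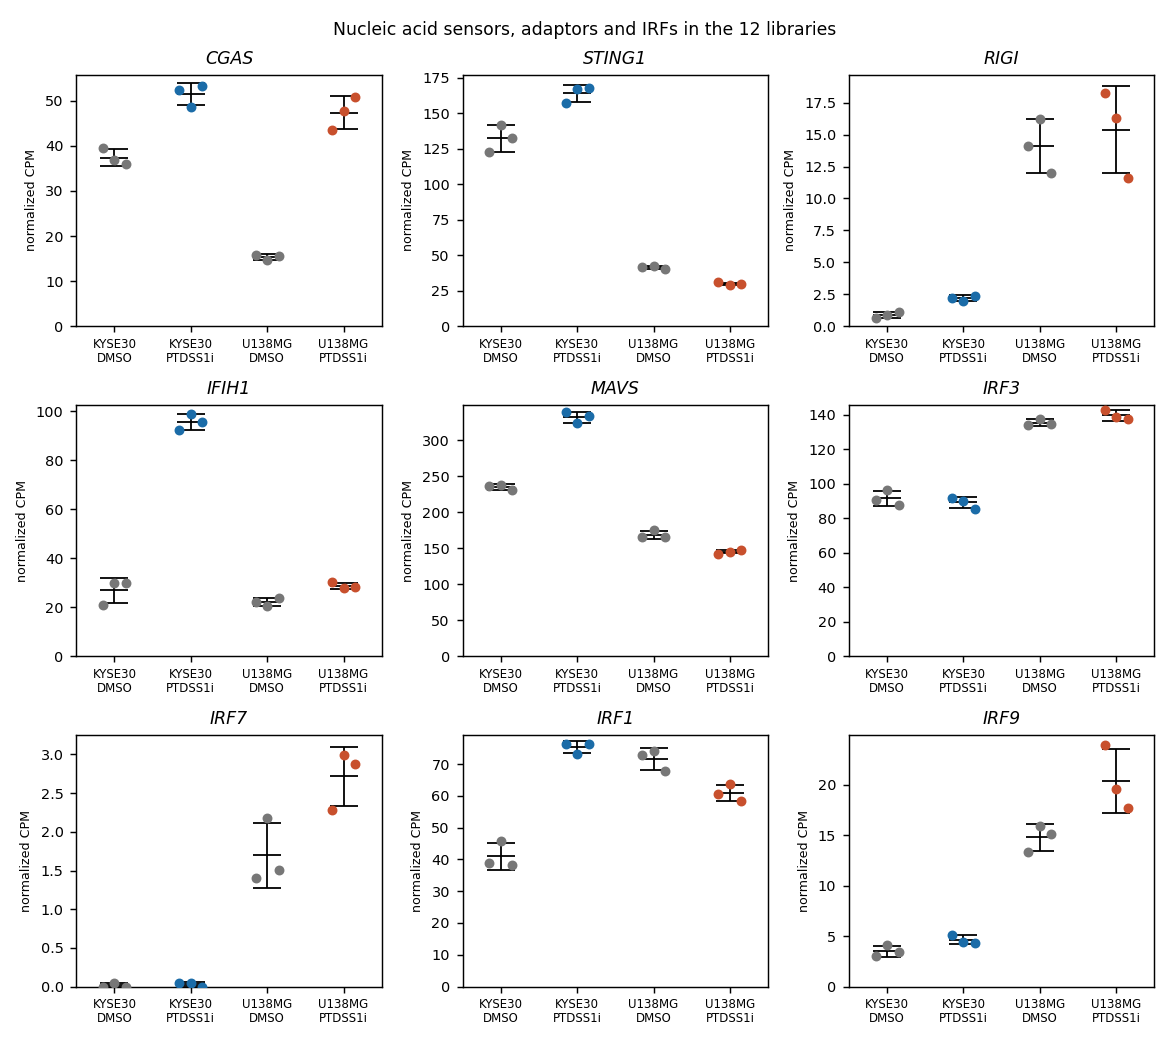
TMM-normalized CPM of each member in every library, by line and treatment (each point is 1 library). *IFIH1* and *IRF1* in KYSE30 and *CGAS* in the libraries labelled U138MG show treated libraries well above the controls, and *RIGI* in the libraries labelled U138MG shows overlapping treatments.

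*IRF3* (ENSG00000126456, minus strand of chr19:49659569-49665875), the factor that both adaptor arms activate by phosphorylation, did not pass the test in either line. In KYSE30 it was at 90.6, 96.4 and 87.9 CPM in DMSO and 92.0, 89.9 and 85.6 CPM in PTDSS1i. Among libraries labelled U138MG the values were 133.9, 137.4 and 134.5 CPM in DMSO and 142.8, 138.4 and 137.2 CPM in PTDSS1i. The treatments overlapped in KYSE30, and in the libraries labelled U138MG PTDSS1i replicate 3 lay just below the highest control. The log2 fold changes were -0.04 (95% interval -0.15 to 0.074, edgeR adjusted p = 0.548) and 0.04 (95% interval -0.03 to 0.12, edgeR adjusted p = 0.287). With library size only both were below 0 and passed the test, at -0.14 (adjusted p = 0.0285) and -0.10 (adjusted p = 0.0132), so no direction is given for this gene. RNA-seq does not read phosphorylation, the step by which IRF3 is switched on.

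*IRF7* (ENSG00000185507, minus strand of chr11:612553-615999), the interferon-inducible relative that amplifies type I interferon, was nearly absent from KYSE30, with 0, 1 and 0 counts in DMSO and 1, 1 and 0 in PTDSS1i. This was under the limit of 3 counts per library, so no fold change was computed. The libraries labelled U138MG had 28, 51 and 34 counts in DMSO and 52, 65 and 72 in PTDSS1i, which equal 1.40, 2.18 and 1.51 CPM against 2.28, 2.99 and 2.87 CPM. The treated libraries lay above the controls by a narrow gap that closed when counts were scaled to library size, and *IRF7* rose by a log2 fold change of 0.67 ± 0.24 (edgeR adjusted p = 0.0141). The call did not hold with library size only (0.52, adjusted p = 0.0512), without DMSO replicate 1 (0.56, adjusted p = 0.0662), DMSO replicate 3 (0.59, adjusted p = 0.0503) or PTDSS1i replicate 2 (0.61, adjusted p = 0.0517).

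*IRF1* (ENSG00000125347, minus strand of chr5:132481609-132490798) rose in KYSE30 from 38.8, 45.8 and 38.2 CPM in DMSO to 76.4, 73.3 and 76.4 CPM in PTDSS1i. Libraries labelled U138MG stood at 72.7, 74.2 and 67.7 CPM in DMSO and 60.7, 63.6 and 58.5 CPM in PTDSS1i. The treatments did not overlap in either line, and untreated libraries labelled U138MG stood near the level of treated KYSE30 libraries, in separately normalized tables. The rise in KYSE30 was 1.84-fold (log2 fold change 0.88 ± 0.066, edgeR adjusted p = 1.53e-10), and the log2 fold change in the libraries labelled U138MG was -0.23 ± 0.048 (edgeR adjusted p = 0.000108). The difference between the lines was -1.15 ± 0.083 (edgeR adjusted p = 3.67e-13).

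*IRF9* (ENSG00000213928, plus strand of chr14:24161053-24166565) was at 3.03, 4.08 and 3.40 CPM in DMSO and 5.13, 4.38 and 4.33 CPM in PTDSS1i in KYSE30. Levels in the libraries labelled U138MG were 13.3, 15.9 and 15.1 CPM in DMSO and 23.9, 19.5 and 17.6 CPM in PTDSS1i. The treated libraries were higher in both lines by narrow gaps, which closed when counts were scaled to library size. The log2 fold change was 0.40 ± 0.15 in KYSE30 (edgeR adjusted p = 0.0288) and 0.46 ± 0.10 in the libraries labelled U138MG (edgeR adjusted p = 0.000749). The KYSE30 call did not hold with library size only (0.29, adjusted p = 0.116), with DESeq2 (0.41, adjusted p = 0.0708), or without DMSO replicate 1 (0.31, adjusted p = 0.0999), DMSO replicate 3 (0.37, adjusted p = 0.0830) or PTDSS1i replicate 1 (0.32, adjusted p = 0.125). The changes in the lines differed by 0.02 (95% interval -0.37 to 0.41, edgeR adjusted p = 0.979), an interval wide enough to hold differences in either direction.

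Across the 9 members, 6 changes differed between the lines, 1 more positive in the libraries labelled U138MG and 5 more positive in KYSE30, against 49.9% of all tested genes in either direction. The other members were *IRF3* (0.04, 95% interval -0.09 to 0.18), *IRF9*, and *IRF7*, whose value rests on KYSE30 libraries with at most 1 count. The same 6 members were called under the other scalings, filters and fits tried for this difference and with each library left out.

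Per kilobase of exon, the order of levels in DMSO also differed between the lines. In KYSE30 *STING1* was highest at 34.4 normalized CPM per kilobase, followed by *IRF3* at 24.1, *MAVS* at 20.01 and *CGAS* at 9.01. *IFIH1* at 5.27 and *IRF1* at 5.25 overlapped, and *IRF9* at 0.924 and *RIGI* at 0.203 came last of the members tested. In the libraries labelled U138MG *IRF3* led at 35.7, then *MAVS* at 14.3, *STING1* at 10.8 and *IRF1* at 9.17. *IFIH1* at 4.35, *IRF9* at 3.89, *CGAS* at 3.70 and *RIGI* at 3.25 followed, each overlapping a neighbor, and *IRF7* was lowest at 0.645. With PTDSS1i, *IFIH1* at 18.7 stood above *CGAS* at 12.4 in KYSE30, and in the libraries labelled U138MG *CGAS* at 11.4 overlapped *MAVS* at 12.3. These levels are per exon length in GENCODE v29, which may not be the annotation the counts were made with.

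**Figure D3:**
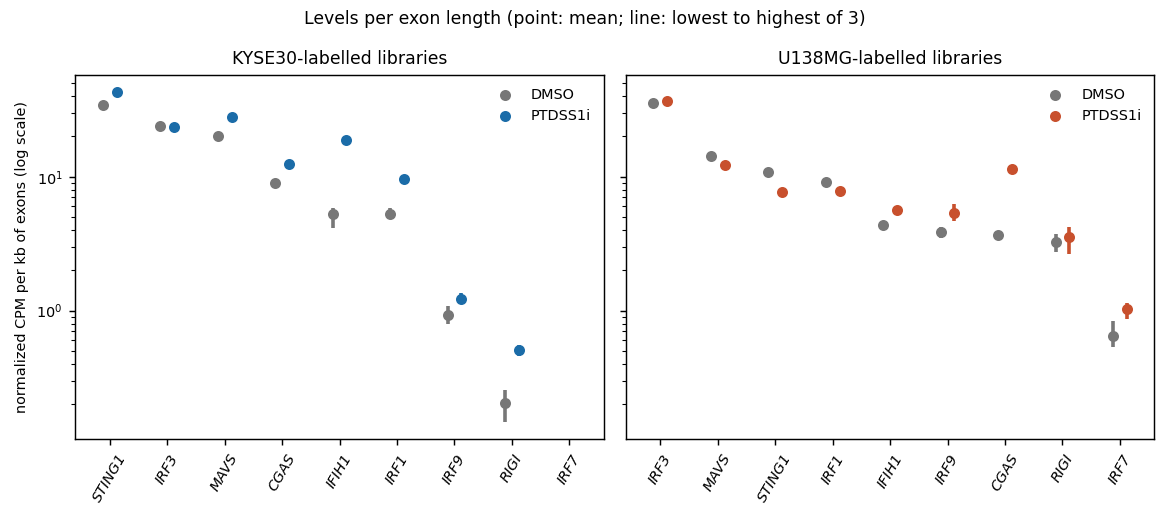
TMM-normalized CPM per kilobase of exon (log axis), with points for means of 3 libraries and lines from the lowest to the highest, ordered by the DMSO level in each line. *IRF7* in KYSE30, at 0 or 1 count, is not drawn. *IFIH1* moves above *CGAS* in KYSE30 with PTDSS1i, and *CGAS* rises close to *MAVS* in the libraries labelled U138MG.

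Some members share exon sequence with neighboring genes. In GENCODE v29, 48.4% of *IRF9* exon bases lie within exons of *AL136295.5* on the same strand, which had 9 to 21 counts in KYSE30 and 57 to 168 in the libraries labelled U138MG. On the opposite strand, 1716 of 7799 *IRF1* exon bases overlap *C5orf56*, 19.3% of *IRF3* exon bases overlap *BCL2L12* and 4.33% of *CGAS* overlap *DDX43*. The library kit does not mark strand, so reads in these stretches cannot be told apart by strand. *STING1*, *RIGI*, *IFIH1*, *MAVS* and *IRF7* had no such overlap.

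Promoter windows, the 250 bases before the transcription start, were taken from RefSeq (GRCh38.p14) for the 5 members that it held, *RIGI*, *IFIH1*, *MAVS*, *IRF1* and *IRF9*, and searched on both strands. The core of the interferon-stimulated response element, GAAA, any 2 bases and again GAAA, which IRF factors and the IRF9 complex bind, is in 3.02% of 35116 such windows and of these 5 only in *IFIH1*, with 3 matches of which 2 overlap. The gamma-activated site, TTCNNNGAA, an element of interferon gamma response genes, is in 6.57% of windows and was found in *IRF1* and *IRF9*, where it read TTCTGGGAA from 63 to 55 bases before the start. The windows of the 2 members that rose most in KYSE30 and carry such a match, *IFIH1* (chr2:162318685-162318934, minus strand) and *IRF1* (chr5:132490774-132491023, minus strand), are given here 5′ to 3′ with these matches in capitals.
IFIH1: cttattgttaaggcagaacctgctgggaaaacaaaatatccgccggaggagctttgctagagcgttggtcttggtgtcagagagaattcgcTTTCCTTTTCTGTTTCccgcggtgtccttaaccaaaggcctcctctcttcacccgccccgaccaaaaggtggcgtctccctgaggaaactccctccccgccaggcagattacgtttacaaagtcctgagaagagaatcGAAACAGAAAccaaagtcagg
IRF1: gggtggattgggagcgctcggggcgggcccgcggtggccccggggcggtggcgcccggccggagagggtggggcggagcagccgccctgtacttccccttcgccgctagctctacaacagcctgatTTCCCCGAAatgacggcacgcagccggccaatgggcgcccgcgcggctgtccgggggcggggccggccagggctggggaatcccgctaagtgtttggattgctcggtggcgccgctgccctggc
The *IFIH1* matches lie 159 to 150, 153 to 144 and 21 to 12 bases before the start, the first pair as the reverse complement. The *IRF1* match lies 124 to 116 bases before it. A consensus NF-kB motif, in 9.96% of windows, was found in *RIGI*, *IFIH1* and *IRF1*, whereas the ATF4 element TGATGNAA and the CRE TGACGTCA, in 3.14% and 1.65% of windows, were found in 0 of the 5. A match is a description of the letters and not of binding.

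The genes around the members were read from 8 lists, which share some genes with each other and contain the members. In KYSE30, 119 of 189 tested list genes rose and 32 fell (median log2 fold change 0.39), and in the libraries labelled U138MG 82 rose and 60 fell of 189 (median 0.03), against medians of -0.03 over all tested genes in each line. With library size only the second split became 60 and 89. Over all tested genes 30.1% rose and 32% fell in KYSE30, and 33.9% and 33.6% in the libraries labelled U138MG. With library size only, rises made up 37.8% and 37.1% of the calls over all tested genes. These shares belong beside every list count here and below, and a count near them shows nothing particular to its list.

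Among genes of DNA sensing and its regulators, 10 of 29 rose and 13 fell in KYSE30, and 8 of 31 rose and 14 fell in the libraries labelled U138MG (6 and 19 with library size only). *IFI16*, a nuclear DNA sensor, rose in both, with log2 fold changes of 1.13 ± 0.11 and 0.63 ± 0.037. *SAMHD1*, which degrades deoxynucleotides, rose in KYSE30 (0.91 ± 0.083) and fell in the libraries labelled U138MG (-1.55 ± 0.095). *MRE11*, a DNA end nuclease, fell in both (-1.18 ± 0.064 and -0.50 ± 0.071), and *SLC19A1*, a folate and cGAMP importer, fell in KYSE30 (-1.22 ± 0.076) and rose in the libraries labelled U138MG (0.37 ± 0.078). *TREX1*, which degrades cytosolic DNA, was tested in the libraries labelled U138MG (-0.40 ± 0.13), where the call did not hold without DMSO replicate 1 (-0.30, edgeR adjusted p = 0.0932) or PTDSS1i replicate 1 (-0.28, adjusted p = 0.0897), and was not analysed here in KYSE30.

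Among genes of RNA sensing, 19 of 31 rose and 9 fell in KYSE30, and 14 of 32 rose and 11 fell in the libraries labelled U138MG (5 and 15 with library size only). *DHX58*, the third RIG-I-like receptor LGP2, rose in KYSE30 from 1.77 ± 0.179 to 5.47 ± 0.196 CPM (log2 fold change 1.62 ± 0.16). Its value in the libraries labelled U138MG was 0.28 ± 0.076, a call lost with library size only (0.14, edgeR adjusted p = 0.113). *OAS1*, *OAS2* and *DDX60*, which bind double-stranded or viral RNA, rose in KYSE30 by 1.81 ± 0.16, 2.00 ± 0.25 and 1.80 ± 0.21. In the libraries labelled U138MG *OAS1* rose (0.35 ± 0.071, a call lost when both lines were fitted together, adjusted p = 0.0775 in edgeR), *OAS2* fell (-1.32 ± 0.13) and *DDX60* had a value of -0.06 ± 0.079 that did not pass (edgeR adjusted p = 0.482, and -0.21 with adjusted p = 0.0205 with library size only). *TLR3*, the endosomal sensor of double-stranded RNA, fell there (-2.08 ± 0.092). Its value in KYSE30 was -0.29 ± 0.11, a call lost with DESeq2 (-0.27, adjusted p = 0.0775) and without DMSO replicate 2 (-0.24), DMSO replicate 3 (-0.21), PTDSS1i replicate 1 (-0.24) or PTDSS1i replicate 2 (-0.31). *ADAR*, which edits double-stranded RNA, rose in KYSE30 (0.38 ± 0.052) and had a value of -0.07 ± 0.034 in the libraries labelled U138MG that did not pass (edgeR adjusted p = 0.0855).

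Of the adaptors and kinases between sensors and IRFs, 19 of 32 rose and 6 fell in KYSE30 (13 and 7 with library size only), and 16 rose and 7 fell in the libraries labelled U138MG (11 and 13). *TBK1*, the kinase of IRF3, rose in both lines, by 0.29 ± 0.061 and 0.41 ± 0.051. *IKBKE*, its relative, had 0.25 ± 0.080 in KYSE30, a call lost with library size only (0.15, edgeR adjusted p = 0.116), and fell in the libraries labelled U138MG (-0.42 ± 0.085). *TNFAIP3*, an NF-kB target that restrains the pathway, rose by 2.01 ± 0.088 and 1.60 ± 0.053.

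In the IRF family, 6 of 9 rose and 0 fell in KYSE30 (4 and 2 with library size only), and 7 of 10 rose and 2 fell in the libraries labelled U138MG (6 and 3). *IRF2*, a repressor of interferon genes, rose by 0.31 ± 0.067 and 0.32 ± 0.050. NF-kB subunits and inhibitors rose in 9 of 12 cases and fell in 1 in KYSE30, and rose in 11 of 12 and fell in 0 in the libraries labelled U138MG. *RELB* rose by 2.35 ± 0.076 and 1.85 ± 0.083, and *NFKB2* by 1.63 ± 0.057 and 1.04 ± 0.051.

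Interferon transcripts were scarce. In KYSE30, 6 of 21 ligand genes were listed and 3 tested, of which 2 rose. *IFNL1*, a type III interferon, had 5, 12 and 5 counts in DMSO and 36, 24 and 31 in PTDSS1i (log2 fold change 1.99 ± 0.35, edgeR adjusted p = 4.17e-05). *IFNB1* had 2, 1 and 4 counts in DMSO and 1, 11 and 1 in PTDSS1i, so that 1 treated library held most of them. In the libraries labelled U138MG, 19 of 21 ligand genes had at most 3 counts in any library. Only 1 ligand gene was tested there, and it fell (log2 fold change -1.03). *IFNL1*, not tested there, had 0 counts in every DMSO library and 3, 3 and 12 in PTDSS1i. A leukocyte marker list, checked because immune cells are a source of interferon, summed to 0.593 to 1.17 CPM in DMSO and 1.65 to 1.99 CPM in PTDSS1i in KYSE30. In the libraries labelled U138MG it summed to 29.2 to 35.7 CPM and 103 to 111 CPM, mostly *CD68*, a lysosomal gene. The myeloid gene *ITGAM* was at 3.55 CPM in DMSO there, with 62 to 100 counts per library. *CD14* was at 0.400 CPM, with 6 to 54 counts. *MS4A1*, a B cell gene, had 0 counts and *PTPRC*, the pan-leukocyte marker, at most 2.

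Of interferon receptors and JAK-STAT genes, 13 of 24 rose and 3 fell in KYSE30, and 12 rose and 6 fell in the libraries labelled U138MG (9 and 8 with library size only). *STAT2*, the partner of IRF9, rose in KYSE30 (0.81 ± 0.098), and its value of 0.15 ± 0.049 in the libraries labelled U138MG passed the test but turned to -0.00094 with library size only and was lost without DMSO replicate 3 (0.12, edgeR adjusted p = 0.0511). *SOCS3*, a feedback inhibitor of JAK kinases, rose in the libraries labelled U138MG by 3.53 ± 0.10, from 3.05 ± 0.342 to 35.4 ± 2.76 CPM, and had a value of -0.11 ± 0.081 in KYSE30 that did not pass (edgeR adjusted p = 0.259, and -0.21 with adjusted p = 0.0335 with library size only). Among interferon-stimulated genes 47 of 55 rose and 0 fell in KYSE30, and 20 of 54 rose and 19 fell in the libraries labelled U138MG (15 and 29 with library size only). *OASL*, a RIG-I activity modulator, rose in both lines (2.84 ± 0.076 and 2.05 ± 0.11), whereas *TRIM22* rose in KYSE30 (1.37 ± 0.23) and fell in the libraries labelled U138MG (-2.12 ± 0.13).

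**Figure D4:**
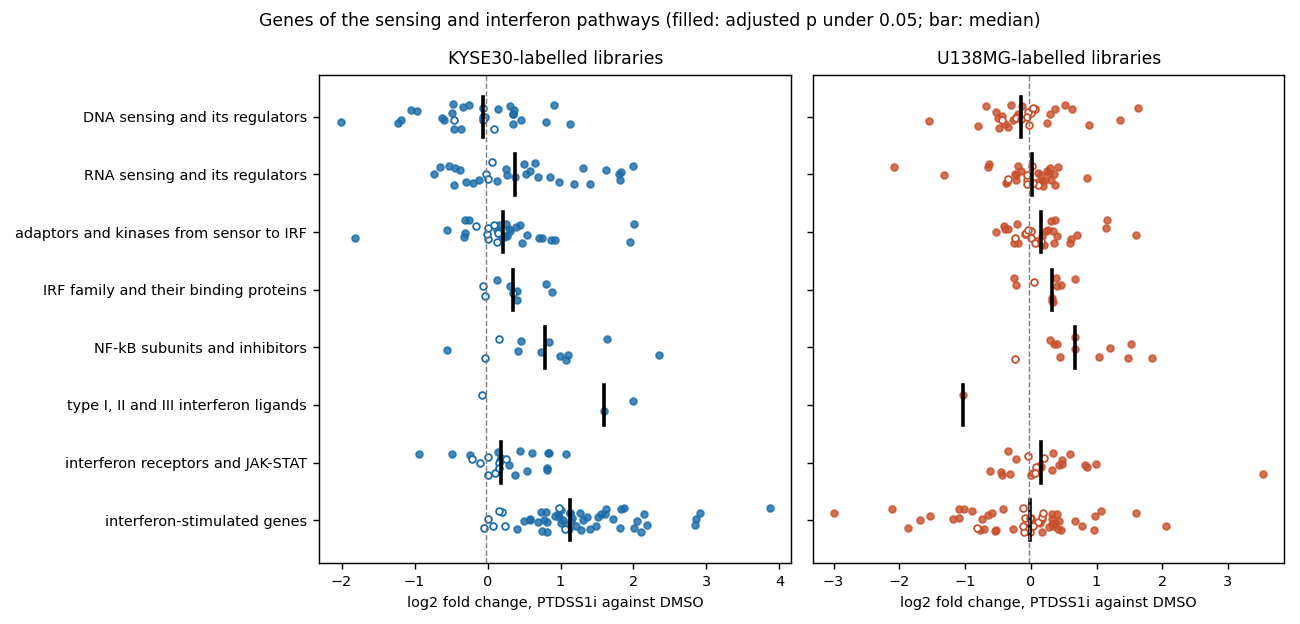
Log2 fold change (PTDSS1i minus DMSO) of the tested genes of each pathway list in both lines. Interferon-stimulated genes lie mostly above 0 in KYSE30, with a median of 1.12, and on both sides of 0 in the libraries labelled U138MG, with a median of -0.01, while most NF-kB genes lie above 0 in both.

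The genes with the pattern most like the members past a log2 fold change of 1 were ranked by Pearson's r of log2 CPM over 12 libraries after subtracting each line's mean, among 11380 genes. All points share their libraries, r does not compare the sizes of changes, and the values are descriptive. They were *HBP1* (0.994), *ZC3HAV1* (0.994) and *DTX3L* (0.993) for *IFIH1*. For *CGAS* they were *ERGIC1* (0.998), *HBEGF* (0.997) and *MICALL1* (0.996), and for *RIGI*, *CLK1* (0.979), *YTHDF3* (0.978) and *MXRA7* (0.974). Among these genes the log2 fold changes ran from 0.14 (*YTHDF3*) to 1.43 (*HBEGF*) in KYSE30. In the libraries labelled U138MG they ran from -0.0065 to 4.98 for the same 2 genes.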

How the data were processed

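RNA was extracted with TRIzol and poly-A libraries were made with the TruSeq RNA v2 kit. Per the labels, the authors trimmed reads with Trimmomatic, aligned them to hg38 with STAR and counted reads per gene with featureCounts (versions, settings and annotation are not given in the sources used here). The deposited values are raw counts, in 1 table per line with different annotations. The tables were joined by gene identifier without version. Genes with too few counts were dropped (filterByExpr, minimum count 10, minimum total 15), leaving 16389 genes in KYSE30 and 17666 in the libraries labelled U138MG. PTDSS1i was tested against DMSO in each line with edgeR 4.0.16 (TMM, robust quasi-likelihood) in R 4.3.3, and the difference between lines by an interaction term over 12 libraries. P-values were adjusted by Benjamini-Hochberg over all tested genes, and the script was tested on simulated data.

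Alternatives were library size only, upper-quartile scaling, DESeq2 1.42.0, other filters, a non-robust fit, both lines together, a replicate block, a log2 fold change over 1 and each library left out. The series' text calls the replicates biological, with 3 per group, and no 2 libraries agreed within sampling noise. With 3 against 3, an exact permutation test of single values cannot go below 0.1, so the fit across genes was used. CPM uses library totals of tested genes scaled by TMM. Intervals and the limit of 3 counts cover model or counting error only.

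All members were reported. Other genes were direct partners named regardless of value (DHX58, TBK1, IKBKE, TREX1, IFI16, ADAR, IFNB1, IFNL1, STAT2 and IRF2, with some not reported here) and, per list and line, up to 3 with the greatest absolute log2 fold change over 1 at a mean of at least 1 CPM, of which a selection is given. Members and lists were chosen with earlier results of these data known.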

Additional observations from a re-analysis of the deposited data

Results flagged for a closer look

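The response of 6 members to PTDSS1i differed between the lines by the interaction test (libraries labelled U138MG minus KYSE30, log2 scale, edgeR). *CGAS* was the only one of them with a more positive change in the libraries labelled U138MG, by 1.12 (95% interval 0.93 to 1.32). The change was more negative there for *STING1* (-0.83), *MAVS* (-0.75) and *IRF1* (-1.15), which had opposite directions in the lines, and for *IFIH1* (-1.49) and *RIGI* (-1.23). *CGAS* and the 2 RNA sensors thus lay on opposite sides of 0 in this comparison. Among the members, *STING1* lay with the RNA sensors. Named genes of the DNA sensing list lay on both sides, with *IFI16* at -0.54 (edgeR adjusted p = 0.000851), *SAMHD1* at -2.50, *MRE11* at 0.64 and *SLC19A1* at 1.55. Those of the RNA sensing list lay below 0, with *DHX58* at -1.37, *OAS1* at -1.49, *OAS2* at -3.36, *DDX60* at -1.90, *TLR3* at -1.82 and *ADAR* at -0.48. Its other genes included *DHX33* at 0.94. A split of DNA from RNA sensing was not tested. Line and batch cannot be told apart in these differences, and the libraries labelled U138MG carry squamous markers.

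Among interferon receptors, chosen after their values were seen, *IFNAR2*, a chain of the type I receptor, fell in KYSE30 (-0.49 ± 0.12) and rose in the libraries labelled U138MG (0.47 ± 0.060), a difference of 0.92 (edgeR adjusted p = 2.53e-07). *IFNGR1*, the ligand-binding chain of the interferon gamma receptor, did the reverse, with 0.61 ± 0.066 and -0.32 ± 0.039, a difference of -0.97 (edgeR adjusted p = 3.52e-12). The partner chains did not share these patterns. *IFNAR1* differed in the other direction from *IFNAR2* (-0.36, edgeR adjusted p = 0.000104). *IFNGR2* rose in KYSE30 (0.84 ± 0.064) and in the libraries labelled U138MG (0.93 to 1.02 with 1 library left out). Its difference of 0.10 did not pass (edgeR adjusted p = 0.350).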

How the results depend on the processing

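The 6 differences between the lines kept their direction and passed the test with library size only, upper-quartile scaling, DESeq2, both other filters, the non-robust fit, the replicate block and each library left out. A fold threshold was not applied to them. Asking for an absolute log2 fold change over 1 as well left 2 members in KYSE30 and 1 in the libraries labelled U138MG, and 52 and 27 of the list genes against 151 and 142. With 1 library left out, 6 to 7 members were called in KYSE30, 6 to 8 in the libraries labelled U138MG and 6 for the difference, and 136 to 149 and 136 to 142 list genes. *IRF3* in the libraries labelled U138MG turned from 0.04 to -0.10 both with library size only and with upper-quartile scaling, and *STAT2* there turned to -0.00094 with library size only (0.00026 with upper-quartile scaling). *IRF7* there also missed the threshold with upper-quartile scaling (0.53, adjusted p = 0.0504). The calls of *IRF9* in KYSE30 and *IRF7* in the libraries labelled U138MG rest on 62 to 110 and 28 to 72 counts per library. Alternatives for genes that are no members were added after the data had been seen.

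The deviations of same-numbered libraries were only weakly correlated (0.0204 to 0.0754 in KYSE30 and -0.00288 to 0.0484 in the libraries labelled U138MG). With 3 numbers per line these values cannot decide whether the numbers pair samples. All 3 KYSE30 numbers, but not all in the libraries labelled U138MG, correlated best with their own. With a replicate block 7 and 7 members were called, 6 for the difference, and 156 and 145 list genes.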
